A study of Mus musculus with 15 samples.

Results

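The 48 genes described here are the mouse cytochrome P450 genes of families 1 to 4 that the arrays measured, of 12393 genes in all. They were taken by symbol, from probe sets that the array annotation pairs with 1 gene only, and probe sets of 1 gene were averaged. 1 further gene of family 2 is left out by the rule, and 4 P450 probe sets were not used because they carry several symbols. By subfamily the genes are 2 of Cyp1a, 1 of Cyp2a, 4 of Cyp2b, 11 of Cyp2c, 7 of Cyp2d, 1 of Cyp2e, 4 of Cyp2j, 5 of Cyp3a, 3 of Cyp4a and 5 of Cyp4f, with 5 more in other subfamilies. The tissue was liver of C57B6SJL mice at 15 months of age, with 5 arrays in each of 3 groups. These were healthy wild type liver, peritumoral liver of MAT1A KO mice and liver tumors of MAT1A KO mice. Both KO groups lack the enzyme that makes S-adenosylmethionine in adult liver, so neither comparison with wild type separates the knockout from the disease. Sex is not given in the sources used here.

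Cytochrome P450 enzymes are heme proteins, most of them bound to the endoplasmic reticulum, which insert an oxygen atom into their substrates with electrons from the reductase Por. Hepatocytes use families 1 to 3 mainly on drugs, toxicants, steroids and bile acids, and family 4 mainly on fatty acids and eicosanoids. Nuclear receptors and AhR set the transcription of many of these genes, several are confined to hepatocytes around the central vein, and in mice some differ strongly between males and females.

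The values are log2 expression levels as RMA gives them, so a difference of 1 is a doubling of the signal. A gene with little or no RNA still reads about 3 to 5. The wild type mean was 9 or more for 22 of the 48 genes, under 5 for 16 and between these for 10. Array medians lay between 5.47 and 5.68. Mat1a, the knockout target, lay between 12.25 and 12.72 in wild type liver and between 8.33 and 11.44 in the KO arrays, where its highest values were those of peritumoral 2, tumor 5 and tumor 2. Whether its probe set lies in the deleted stretch is not given in the sources used here. These 3 arrays and wild type 4 also had the lowest mean correlations within their own groups, at 0.963 in wild type 4, 0.938 in peritumoral 2, 0.929 in tumor 2 and 0.931 in tumor 5. The granulocyte gene S100a8 lay at 12.92 in wild type 4 and between 5.92 and 7.29 in the other wild type arrays. The mean over 12 hepatocyte markers lay between 13.25 and 13.73 in every array, and Alb between 14.46 and 14.70. Their median log2 ratio of tumors to wild type was -0.08, but single markers fell in single tumors. Apob dropped to 10.02 in tumor 5, where no wild type array read under 13.07. Cps1, never under 13.01 in wild type liver, dropped to 10.69 in tumor 1 and 11.82 in tumor 4. In tumor 2 Cps1 reached 13.45, above the wild type range. In such bulk tissue, fewer cells of a type and less RNA per cell cannot be told apart.

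Promoter sequences are shown for 2 sets of members, as a view of how alike their upstream regions are. Of the 48 genes, 38 have an entry in the RefSeq table of mouse promoters (GRCm38.p6). The first set is Cyp2b9, Cyp2b13 and Cyp2b10, neighbors on chromosome 7. The first 2 were above the wild type range in the same 6 KO arrays. Cyp2b10 stood out only in peritumoral 3 and tumor 3 of these, at 7.49 and 6.43. For each of these genes the 250 bases before the transcription start are given on the plus strand, at chr7:26173159-26173408, chr7:26061245-26061494 and chr7:25897408-25897657. Capitals mark the positions at which Cyp2b9 and Cyp2b13 differ.
Cyp2b9: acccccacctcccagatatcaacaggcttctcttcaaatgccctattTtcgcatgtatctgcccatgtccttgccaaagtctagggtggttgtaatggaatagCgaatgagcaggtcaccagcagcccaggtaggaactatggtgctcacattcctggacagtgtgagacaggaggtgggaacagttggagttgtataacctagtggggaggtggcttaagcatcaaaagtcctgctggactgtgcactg
Cyp2b13: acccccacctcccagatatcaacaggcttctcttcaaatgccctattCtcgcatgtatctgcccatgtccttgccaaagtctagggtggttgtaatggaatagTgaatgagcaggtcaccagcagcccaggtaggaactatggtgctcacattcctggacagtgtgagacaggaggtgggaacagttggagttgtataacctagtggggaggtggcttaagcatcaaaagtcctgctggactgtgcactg
Cyp2b10: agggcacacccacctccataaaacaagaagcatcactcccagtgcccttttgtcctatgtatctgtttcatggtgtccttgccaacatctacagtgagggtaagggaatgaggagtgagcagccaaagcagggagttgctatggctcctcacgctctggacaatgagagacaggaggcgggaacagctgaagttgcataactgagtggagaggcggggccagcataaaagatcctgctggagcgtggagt
The windows of Cyp2b9 and Cyp2b13 were identical at 248 of 250 bases and differed by the substitutions T48C and C104T, counted from 1 at the first printed base with the Cyp2b9 base first. The Cyp2b10 window aligned to either of them with 182 identical bases.

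The second set is Cyp2c29, Cyp2c37 and Cyp2c50, of which Cyp2c37 and Cyp2c50 lay lowest in tumors 5 and 2 and Cyp2c29 in tumors 5 and 3. Their windows are on the plus strand at chr19:39286835-39287084, chr19:39992174-39992423 and chr19:40089429-40089678. Capitals mark the letters CAAAGT, the core shared by many binding sites of HNF4, a receptor that hepatocytes need for much of their gene expression.
Cyp2c29: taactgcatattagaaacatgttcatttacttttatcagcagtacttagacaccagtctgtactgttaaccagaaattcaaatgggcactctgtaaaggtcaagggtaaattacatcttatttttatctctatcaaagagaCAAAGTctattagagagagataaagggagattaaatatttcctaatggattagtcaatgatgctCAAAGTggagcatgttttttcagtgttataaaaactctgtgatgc
Cyp2c37: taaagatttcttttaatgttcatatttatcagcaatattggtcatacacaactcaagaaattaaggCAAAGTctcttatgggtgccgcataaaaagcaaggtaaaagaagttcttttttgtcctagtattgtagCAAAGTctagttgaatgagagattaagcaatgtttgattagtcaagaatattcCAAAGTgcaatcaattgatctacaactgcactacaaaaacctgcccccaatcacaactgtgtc
Cyp2c50: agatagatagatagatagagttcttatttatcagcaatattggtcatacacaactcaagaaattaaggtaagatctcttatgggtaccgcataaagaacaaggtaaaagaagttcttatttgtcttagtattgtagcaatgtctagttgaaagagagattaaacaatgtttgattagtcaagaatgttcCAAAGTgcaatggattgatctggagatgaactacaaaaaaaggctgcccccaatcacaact
Cyp2c37 and Cyp2c50 shared 215 identical bases in alignment, while Cyp2c29 shared 150 with Cyp2c37 and 152 with Cyp2c50. The letters CAAAGT were searched on both strands and occurred 2 times in the window of Cyp2c29, 3 times in Cyp2c37 and 1 time in Cyp2c50. Over the members with an entry, 17 of 38 windows held them (44.7%), beside 12.5% of 27025 mouse promoters. Among the 17 were Cyp2b9 and Cyp2b13, printed above, where capitals do not mark these letters. Cyp3a11 and Cyp2d26 held them too, with mean levels of 13.77 and 12.75 in tumors and 13.76 and 12.73 in wild type liver. The letters TATAAA, the usual TATA box, occurred in 16 of the 38 windows (42.1%) and in 12.9% of all promoters. A match is a stretch of letters and not a measured site.

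No P450 gene passed the test in any of the 3 comparisons. With limma and Benjamini-Hochberg adjustment over all genes, adjusted p was under 0.05 for 0 of 48 between tumors and wild type liver, where 0.565% of all genes passed. It was so for 0 of 48 between peritumoral and wild type liver (0.0403% of all genes) and for 0 of 48 between tumors and peritumoral liver (0.0161%). At an unadjusted p under 0.05, 7 of the 48 genes were lower in tumors than in wild type (14.6%, against 9.96% of all genes) and 1 was higher (7.46% of all genes). Over the 48 genes the median log2 ratio of tumors to wild type was -0.12, beside -0.05 over all genes. The 22 genes with a wild type mean of 9 or more had a median of -0.79 and 19 of them lay below 0, where all 1205 genes at such levels had a median of -0.12. By unadjusted p under 0.05, 5 of these 22 genes were lower and 0 higher, beside 229 and 120 of the 1205. Part of the difference from the share over all genes thus goes with level.

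By subfamily, the largest group, Cyp2c, had the lowest median in tumors. Of its 11 genes 9 lay below 0 in tumors, with a median log2 ratio of -0.91, and in single tumors 1 to 5 their median ratio to the wild type mean was 0.03, -1.32, -0.61, -0.17 and -2.996. By this median tumors 1 and 4 were close to wild type liver and tumor 5 far from it, but single genes differed. Cyp2c38 and Cyp2c55 lay 2.53 and 2.81 above the wild type mean in tumor 1 and 1.69 and 1.47 above it in tumor 4. The lowest Cyp2c ratios there were -0.66 for Cyp2c23 in tumor 1 and -0.82 for Cyp2c29 in tumor 4. In peritumoral liver 8 of the 11 lay below 0, with a median of -0.23. The 7 Cyp2d genes had a median of -0.05 in tumors and 0.25 in peritumoral liver, where 5 of the 7 lay above 0. Tumor 5 was again the lowest, with a Cyp2d median of -0.94.
The 5 Cyp3a genes had a median of -0.04 in tumors, and 2 of the 5 lay near the floor. The 5 Cyp4f genes had medians of -0.44 in tumors and -0.29 in peritumoral liver, with 3 of the 5 below 0 in both groups, and the 4 Cyp2j genes had -0.19 and -0.12 in the same order. The 4 Cyp2b genes had the highest medians, 0.58 in tumors and 1.32 in peritumoral liver, and the arrays divided. The Cyp2b median was 3.04 in tumor 3 and 4.23 in peritumoral 3, and -0.60 and -0.59 in the arrays with number 1.

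**Figure D1:**
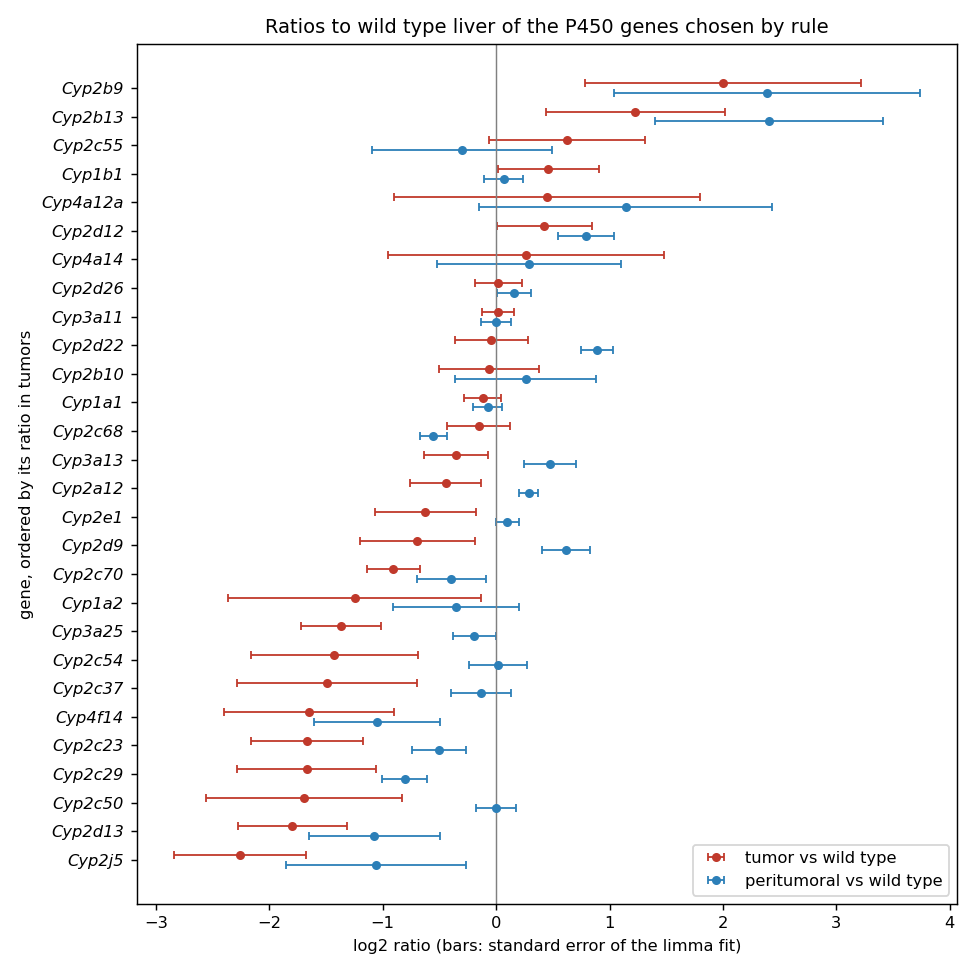
Log2 ratios to wild type liver of 28 P450 genes chosen by rule, with the standard error of the limma fit as bars (5 arrays per group), for tumors in red and peritumoral liver in blue. Cyp2j5 has the lowest ratio in tumors, -2.26, and Cyp2b9 and Cyp2b13 the highest ratios in both groups.

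Cyp2c70, Cyp3a25 and Cyp2c23 were the 3 genes whose 5 tumors all lay below all 5 wild type arrays, which was so for 2.84% of all genes, and 0 genes lay above (2.23% of all genes). Cyp2c70 makes muricholic acids, the bile acids typical of mice. Its level was 13.53, 13.08, 13.04, 13.38 and 12.96 in wild type arrays 1 to 5 and 12.90, 11.58, 12.07, 12.63 and 12.27 in tumors 1 to 5. The log2 ratio was -0.91 (SE 0.23, the standard error of the fit), a 1.88-fold lower level, with adjusted p = 0.0998 from limma.
The lowest wild type array and the highest tumor nearly met, at 12.96 and 12.90.
Cyp3a25, a family 3 enzyme of hepatocytes, lay at 12.35, 12.30, 12.54, 12.16 and 12.74 in wild type liver and at 11.07, 11.41, 11.93, 11.17 and 9.65 in tumors. Its log2 ratio was -1.37 (SE 0.35, adjusted p = 0.101 from limma). The lowest tumor was the fifth, and without it the ratio was -1.02 with adjusted p = 0.0466. Over the 22 alternatives run for this ratio, adjusted p lay between 0.00313 and 0.240.
Cyp2c23, an arachidonic acid epoxygenase, lay between 11.02 and 11.56 in wild type liver and at 10.62, 8.29, 10.24, 10.61 and 8.28 in tumors. Tumors 2 and 5 lay about 2 below the other 3, and the log2 ratio was -1.67 (SE 0.49, adjusted p = 0.140). Without tumors 2 and 5 the ratio was -0.79 with adjusted p = 0.0323.

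Cyp2j5 had the largest log2 ratio in tumors, and it is an epoxygenase that turns arachidonic acid into epoxyeicosatrienoic acids in liver and kidney. It lay at 10.99, 10.76, 11.06, 9.75 and 10.93 in wild type liver and at 8.88, 6.67, 10.19, 8.92 and 7.54 in tumors. Tumor 3 alone lay above the lowest wild type array, which was the fourth. The log2 ratio was -2.26 (SE 0.58, adjusted p = 0.101), a 4.79-fold lower level. Without tumor 3 it was -2.70 with adjusted p = 0.0444. In peritumoral liver Cyp2j5 lay at 10.43, 10.71, 10.38 and 10.52 in arrays 1, 3, 4 and 5 and at 6.17 in array 2. Its 2 probe sets had log2 ratios of -1.78 and -2.74 in tumors.

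Cyp2d13, a gene of the Cyp2d cluster, lay at 6.75, 6.90, 7.15, 4.89 and 7.41 in wild type liver and at 5.12, 3.90, 5.71, 4.96 and 4.44 in tumors. All tumors lay below the wild type arrays other than the fourth, with a log2 ratio of -1.80 (SE 0.48, adjusted p = 0.112). Without wild type 4 the ratio was -2.23 with adjusted p = 0.0126. In peritumoral liver it lay at 6.08, 3.67, 6.38, 5.81 and 5.79.
Cyp4f14, which hydroxylates leukotriene B4, lay at 10.73, 10.61, 10.56, 9.34 and 10.81 in wild type liver and at 10.06, 5.66, 9.65, 9.59 and 8.83 in tumors. Tumor 2 stood far below the others, and the log2 ratio of -1.65 (SE 0.75) had adjusted p = 0.289. In peritumoral liver array 2 was likewise the lowest, at 7.14, where the other 4 lay between 9.51 and 10.23.

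With 4 arrays that stand apart left out, wild type 4, peritumoral 2 and tumors 2 and 5, 10 of the 48 genes passed the test between tumors and wild type liver, 8 lower and 2 higher. The share of all genes that passed was then 11.5%. The 8 lower genes were Cyp2c23, Cyp2c37, Cyp2d13, Cyp2j5, Cyp3a13, Cyp3a25, Cyp4f13 and Cyp4f14, and the higher ones were Cyp4a12a and Cyp4f16. These ratios describe tumors 1, 3 and 4 only. The mean over 10 proliferation genes lay between 4.35 and 5.26 in wild type liver and between 4.84 and 6.53 in tumors. With all 5 tumors and 5 wild type arrays, 6 of the 10 were higher at an unadjusted p under 0.05, where 7.46% of all genes were so. Their part in the P450 levels was not tested.

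The tumors did not share 1 P450 pattern. Tumor 5 had 19 of the 48 genes at least 1 below the wild type mean (39.6%), where 7.06% of all genes were so low, and tumor 2 had 14 (29.2%, against 6.54%). Tumors 1, 3 and 4 had 4, 4 and 3 genes so low, where all genes gave 1.56%, 0.75% and 1.26%. At least 1 above the wild type mean were 6, 2, 6, 6 and 3 genes in tumors 1 to 5, and the shares over all genes were 3.32%, 5.7%, 4.54%, 2.62% and 7.45%. Highly expressed genes can fall further than genes near the floor. Among the 22 genes with a wild type mean of 9 or more, 15 were at least 1 lower in tumor 5 (68.2%, against 20.6% of all genes at such levels) and 12 in tumor 2 (54.5%, against 22.1%). In tumors 1, 3 and 4 they were 2, 3 and 2, where genes at such levels gave 6.22%, 3.24% and 5.64%.

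**Figure D2:**
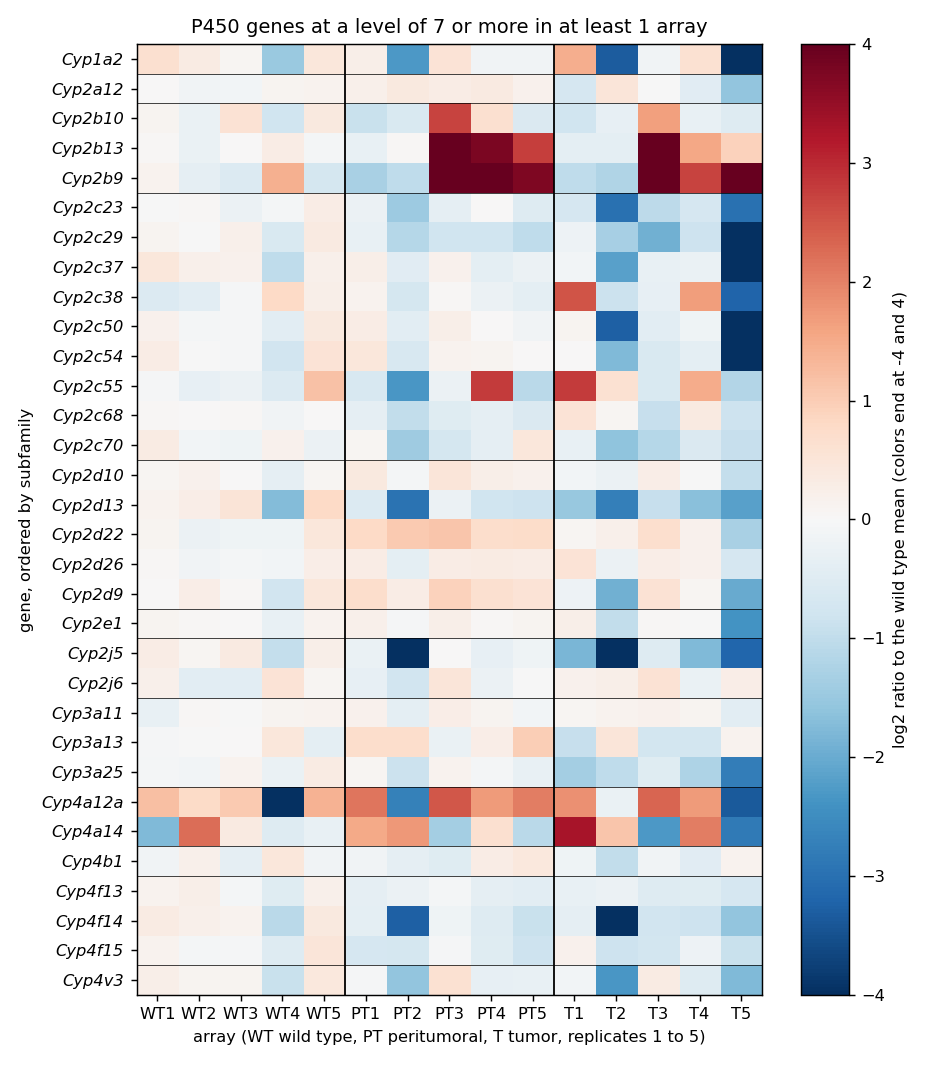
Log2 ratio to the wild type mean, as color, of the 32 P450 genes that reached a level of 7 or more in at least 1 array (rows, by subfamily) in the 15 arrays (columns). The columns of tumors 5 and 2 are mostly blue, and Cyp2b9 and Cyp2b13 are red in arrays 3, 4 and 5 of both KO groups.

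Of 7 measured P450 genes of pericentral hepatocytes, 6 were at least 1 below the wild type mean in tumor 5, all but Cyp3a11. This was not particular to them, since 15 of the 22 P450 genes with a wild type mean of 9 or more were so low there (68.2%). Cyp2a12, Cyp2d9, Cyp4f14 and Cyp4v3, which are not among the 7, were so as well. Cyp1a2, which oxidizes caffeine and aromatic amines, lay at 12.63, 12.30, 12.06, 10.50 and 12.42 in wild type liver. In tumors 1 to 5 it lay at 13.43, 8.67, 11.83, 12.58 and 7.15. Tumors 5 and 2 thus lay below every wild type array and tumor 1 above every one. Cyp2e1, which oxidizes ethanol and acetone, lay between 13.63 and 14.07 in wild type liver and at 14.16, 12.94, 13.96, 13.91 and 11.53 in tumors. Again only tumors 2 and 5 were below the wild type range.
Cyp2c50, an epoxygenase of arachidonic and linoleic acid, lay between 12.54 and 13.34 in wild type liver and at 13.07, 9.71, 12.55, 12.79 and 8.23 in tumors. Its log2 ratio of -1.69 (SE 0.87, adjusted p = 0.343) averages 2 low arrays, tumors 2 and 5, with 3 that lay within the wild type range. Cyp2c37, a hydroxylase of arachidonic acid, showed the same order, with 11.06, 9.001, 10.86, 10.91 and 6.58 in tumors beside 10.15 to 11.64 in wild type liver. Cyp2c54 lay at 11.80, 10.02, 11.16, 11.38 and 7.37 in tumors beside 11.002 to 12.31.
Without tumors 2 and 5 and the 2 other arrays that stand apart, the log2 ratios were -0.27 for Cyp2c50, -0.49 for Cyp2c37 and -0.52 for Cyp2c54.

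Glul, the glutamine synthetase of the hepatocytes next to the central vein, and Axin2, a target of Wnt signaling, are no P450 genes and were added after their values were seen. Glul lay between 10.58 and 10.88 in wild type liver and at 13.30, 10.46, 10.76, 13.07 and 7.60 in tumors. Axin2 lay between 4.597 and 5.12 in wild type liver and at 6.49, 4.73, 4.41, 6.05 and 4.53 in tumors. Tumors 1 and 4, high in both, were also the 2 highest in Cyp1a2 and in Cyp2c38, an arachidonic acid epoxygenase that lay at 11.31, 7.93, 8.44, 10.46 and 5.58 in tumors beside 8.22 to 9.58 in wild type liver. Cyp2c29, Cyp2c37, Cyp2c50 and Cyp2c54 lay within or below the wild type range in tumors 1 and 4, and Cyp2e1 was above it in tumor 1 only. Tumor 5, lowest in Glul, was lowest in Cyp1a2, Cyp2e1, Cyp2c29, Cyp2c37, Cyp2c38, Cyp2c50 and Cyp2c54. Axin2 was lowest in tumor 3 instead. Over 7 pericentral P450 genes the mean level was 12.84, 10.81, 12.16, 12.48 and 8.98 in tumors 1 to 5, and between 11.97 and 12.93 in wild type liver. Tumor 2 was thus low in this mean, with Glul at 10.46, close to the wild type range. No test was made across these 5 tumors.

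**Figure D3:**
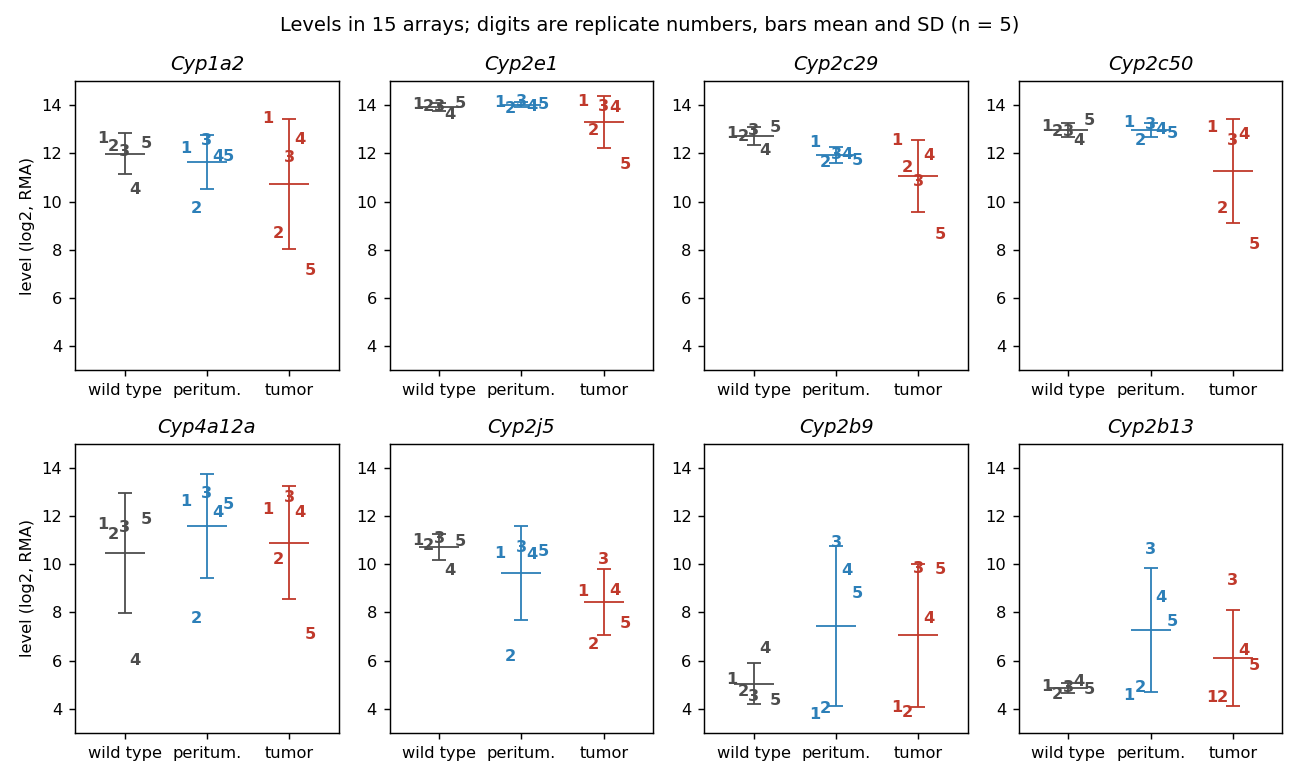
Levels of 8 P450 genes (log2, RMA) in wild type, peritumoral and tumor arrays, each digit being 1 array by its replicate number, with mean and SD (n = 5). Tumors 5 and 2 lie low for Cyp1a2, Cyp2e1 and Cyp2c50, and arrays 3, 4 and 5 of the KO groups lie high for Cyp2b9 and Cyp2b13.

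Cyp3a11, the main target of the xenobiotic receptor PXR, varied little. It lay between 13.46 and 13.91 in wild type liver, between 13.36 and 14.01 in peritumoral liver and between 13.33 and 13.93 in tumors, and its lowest array was tumor 5. The group means were 13.76 ± 0.18, 13.75 ± 0.26 and 13.77 ± 0.25 (SD, n = 5). Cyp2d26 lay at 12.73 ± 0.16, 12.89 ± 0.31 and 12.75 ± 0.47 in the same order, with its lowest values of 12.07 in tumor 5 and 12.33 in peritumoral 2.

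Between peritumoral and wild type liver P450 genes lay in both directions. At an unadjusted p under 0.05, 3 of the 48 genes were lower (6.25%, against 9.88% of all genes) and 6 were higher (12.5%, against 5.18%). The groups did not overlap for 1 lower gene, Cyp2c68 (2.08% of all genes), and for 3 higher ones, Cyp2d22, Cyp2a12 and Cyp2d12 (1.12% of all genes). The median log2 ratio was -0.05 over the 48 genes and -0.06 over all genes.
Cyp2d22, which is often set beside human CYP2D6, came closest to the threshold. It lay at 9.61, 9.27, 9.35, 9.34 and 9.96 in wild type liver and at 10.32, 10.57, 10.61, 10.22 and 10.25 in peritumoral liver. Every peritumoral array was above every wild type array, with a log2 ratio of 0.89 (SE 0.14, adjusted p = 0.0598 from limma), a 1.85-fold higher level. Over its 20 alternatives adjusted p lay between 0.0101 and 0.309, and it was under 0.05 in 5 of them. Without wild type 5 it was 0.0203.
In tumors Cyp2d22 lay at 9.57, 9.71, 10.17, 9.67 and 8.21, all below the peritumoral arrays, which was so for 1.11% of all genes. The log2 ratio of tumors to peritumoral liver was -0.93 (SE 0.31, adjusted p = 0.3996).

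Cyp2a12, an enzyme that hydroxylates bile acids, lay between 12.08 and 12.37 in wild type liver and between 12.41 and 12.62 in peritumoral liver. The log2 ratio was small, 0.29 (SE 0.08, adjusted p = 0.203). In tumors it spread from 10.64 in tumor 5 to 12.70 in tumor 2, the reverse of the order these tumors took for Cyp2j5 and Cyp4f14. Cyp2d12 lay between 4.14 and 4.74 in wild type liver and between 4.88 and 6.11 in peritumoral liver, a log2 ratio of 0.79 (SE 0.25, adjusted p = 0.223), at levels near the floor.
Cyp2c68 lay between 11.87 and 12.06 in wild type liver and at 11.64, 11.04, 11.54, 11.64 and 11.42 in peritumoral liver, a log2 ratio of -0.55 (SE 0.12, adjusted p = 0.109). In tumors it was 12.55, 12.09, 11.08, 12.36 and 11.17, so tumors lay on both sides of the wild type range. Cyp2c29, which CAR activators induce, lay at 12.84, 12.71, 12.93, 12.11 and 13.09 in wild type liver and at 12.43, 11.61, 11.95, 11.94 and 11.72 in peritumoral liver. All but the first peritumoral array were below every wild type array, with a log2 ratio of -0.81 (SE 0.20, adjusted p = 0.159). Without wild type 4 the ratio was -0.96 with adjusted p = 0.0298, and Cyp2c68 then had -0.59 with adjusted p = 0.0478. Tumors lay at 12.54, 11.42, 10.81, 11.91 and 8.65 in Cyp2c29.

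With wild type 4 and peritumoral 2 left out, 11 of the 48 genes passed between peritumoral and wild type liver, 6 lower and 5 higher, where 7.73% of all genes passed. The 6 lower genes were Cyp2c29, Cyp2c68, Cyp2d13, Cyp2j5, Cyp4f13 and Cyp4f14. The 5 higher genes were Cyp2c39, Cyp2d22, Cyp2d9, Cyp4a12a and Cyp4f16.
Of single peritumoral arrays, the second had 11 of the 48 genes at least 1 below the wild type mean (22.9%, against 6.33% of all genes), and arrays 1, 3, 4 and 5 had 1, 1, 0 and 3 (0.428%, 0.42%, 0.428% and 0.637% of all genes). At least 1 above were 3, 5, 6, 4 and 3 genes in peritumoral arrays 1 to 5, where all genes gave 1.03%, 6%, 1.25%, 1.52% and 2.18%.
Each wild type array was set against the mean of the other 4. Wild type 4 had 7 of the 48 genes at least 1 below it (14.6%, against 1.49% of all genes), and arrays 1, 2, 3 and 5 had 1, 0, 0 and 0 (0.452%, 0.339%, 0.605% and 0.904%). At least 1 above were 1, 1, 1, 2 and 2 genes in wild type arrays 1 to 5, where all genes gave 0.234%, 0.258%, 0.21%, 3.74% and 0.613%.
In wild type 4 the mean over 10 granulocyte markers was 9.85, beside 5.15 to 5.79 in the other wild type arrays, and the mean over 12 acute phase genes was 12.79, beside 10.68 to 12.13. Their part in the P450 levels of this array was not tested.

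**Figure D4:**
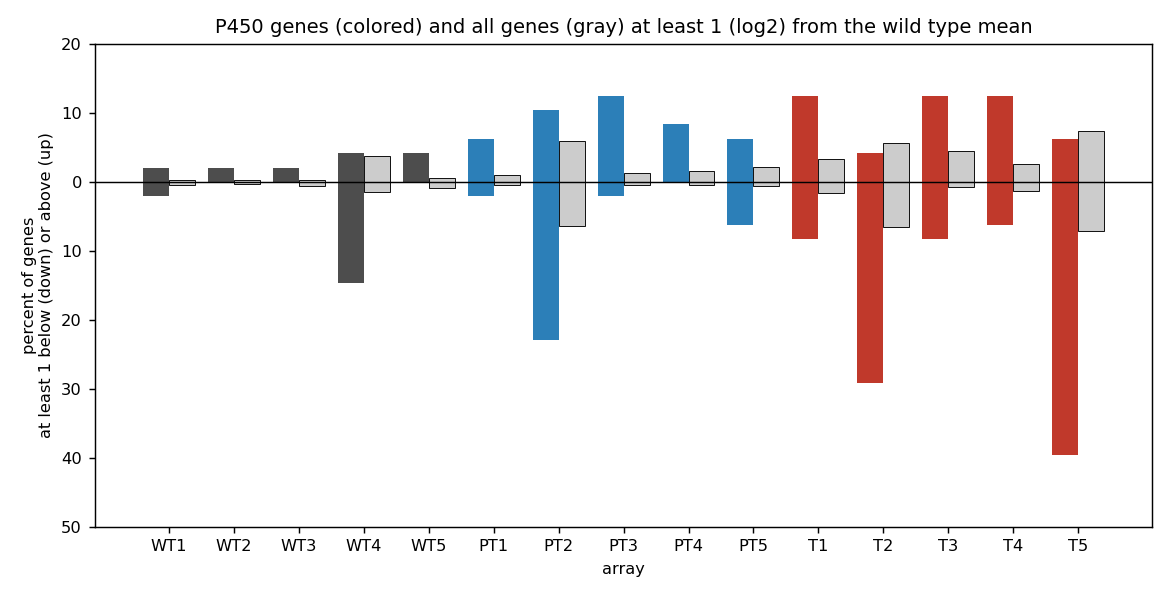
Percent of the 48 P450 genes (colored bars) and of all 12393 genes (gray bars) that lay at least 1 (log2) above, upward, or below, downward, the wild type mean in each array. Wild type arrays are set against the mean of the other 4, and the longest downward bars are those of tumor 5 (39.6%) and tumor 2 (29.2%).

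Cyp2b9 and Cyp2b13, which adult female mice express far above males, were high in some KO arrays and not in others. Cyp2b9 lay at 5.20, 4.70, 4.497, 6.48 and 4.36 in wild type liver, at 3.74, 4.02, 10.88, 9.75 and 8.79 in peritumoral liver and at 4.04, 3.84, 9.84, 7.74 and 9.76 in tumors. Arrays 3, 4 and 5 of both KO groups lay above every wild type array, and arrays 1 and 2 of both lay below every one. Cyp2b13 lay at 4.57, 4.90, 10.63, 8.62 and 7.63 in peritumoral liver and at 4.46, 4.48, 9.31, 6.42 and 5.79 in tumors, beside 4.59 to 5.15 in wild type liver. It was thus above the wild type range in the same 6 arrays.
The log2 ratio of peritumoral to wild type liver was 2.39 for Cyp2b9 (SE 1.35, adjusted p = 0.410) and 2.40 for Cyp2b13 (SE 1.01, adjusted p = 0.304). In tumors that of Cyp2b9 was 2.00 (SE 1.22, adjusted p = 0.416). The 2 genes are close copies, and whether their probe sets read both transcripts was not tested.
Cyp2b10, the classic target of the receptor CAR, reached 7.49 in peritumoral 3 and 6.43 in tumor 3 and lay between 3.91 and 5.45 in the other 13 arrays. Cyp2b19 stayed between 3.20 and 3.57 in all 15 arrays.

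The other genes known to differ between the sexes did not follow Cyp2b9. Cyp4a12a, which makes 20-HETE and is a gene of male mouse liver and kidney, lay at 11.64, 11.23, 11.51, 6.01 and 11.85 in wild type liver. It lay at 12.60, 7.76, 12.95, 12.16 and 12.48 in peritumoral liver and at 12.28, 10.18, 12.78, 12.15 and 7.09 in tumors. Arrays 1, 3 and 4 of both KO groups were thus above the wild type range for Cyp4a12a, with Cyp2b9 low in arrays 1 and high in arrays 3 and 4. Of arrays 5, where Cyp2b9 was also high, the peritumoral one was above that range and the tumor was not. The log2 ratio of peritumoral to wild type liver was 1.14 (SE 1.29, adjusted p = 0.659), and 0.99 with adjusted p = 0.0162 without wild type 4 and peritumoral 2.
Cyp2d9, a steroid 16α-hydroxylase of male mice, lay at 12.68, 12.92, 12.71, 11.88 and 13.11 in wild type liver, at 13.36, 12.96, 13.58, 13.29 and 13.19 in peritumoral liver and at 12.47, 10.73, 13.22, 12.75 and 10.65 in tumors. All peritumoral arrays but the second were above the wild type range, and tumors 2 and 5 were below it. In peritumoral liver the log2 ratio to wild type was 0.62 (SE 0.21, adjusted p = 0.244).
Of the female genes Cyp3a16 and Cyp3a44, the first lay between 3.02 and 4.02 and the second between 3.22 and 4.74 over the 15 arrays, both near the floor. Cyp2c39, also a female gene, lay between 5.60 and 6.26 in wild type liver and at 6.55, 6.88, 6.38, 5.98 and 6.08 in peritumoral liver. That log2 ratio was 0.58 (SE 0.19, adjusted p = 0.229 from limma). The female gene Cyp2c38 was highest in tumors 1 and 4, at 11.31 and 10.46, beside 8.22 to 9.58 in wild type liver.
Over 2 male liver genes outside the family, added after their values were seen, the mean was 4.17 in wild type 4 and 11.49 to 12.06 in the other wild type arrays. In KO arrays this mean was 7.45 in peritumoral 3, 6.70 in tumor 3 and between 4.01 and 5.84 in the rest. Hsd3b5, 1 of these 2 genes and a steroid dehydrogenase, lay at 11.25, 11.14, 10.51, 3.68 and 11.37 in wild type liver and between 3.40 and 4.83 in all 10 KO arrays. Wild type 4, the lowest wild type array for Hsd3b5 and Cyp4a12a, was the highest for Cyp2b9. Xist, the RNA of the inactive X chromosome, lay between 3.27 and 3.81 in all 15 arrays, and the Y-linked Eif2s3y lay between 7.46 and 8.32 in wild type and peritumoral liver and between 4.02 and 7.04 in tumors.

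Tumor and peritumoral arrays carry the same numbers, and equal numbers deviated together from their group means, so the 2 groups were also compared in pairs. Without the pairing, 5 of the 48 genes were lower in tumors at an unadjusted p under 0.05 (10.4%, against 4.63% of all genes) and 0 were higher (4.65% of all genes). Beside the 1 lower gene whose groups did not overlap, 0 higher ones did so (1.22% of all genes). With the replicate number as a block, 15 were lower (31.2%, against 7.09% of all genes) and 1 was higher (2.08%, against 6.19%), and 0 passed after adjustment by limma.
In all 5 pairs the tumor lay below its peritumoral array for 12 of the 48 genes (25%), where 7.03% of all genes did so, and above it for 1 gene, Cyp4f16 (2.08%, against 6.42%). The 12 genes were Cyp2b13, Cyp2c23, Cyp2c50, Cyp2c54, Cyp2c70, Cyp2d9, Cyp2d10, Cyp2d22, Cyp2j9, Cyp3a13, Cyp3a25 and Cyp4v3. Since tumors 2 and 5 were low in many P450 genes, pairs 1, 3 and 4 show how far the difference reached without them.
For Cyp3a13, a family 3 enzyme also known from the intestine, tumor minus peritumoral was -1.61, -0.21, -0.48, -1.01 and -0.84 in pairs 1 to 5. Its mean of -0.83 had a standard error of 0.20 in the paired fit (adjusted p = 0.198), and pairs 1 and 4 differed more than pairs 2 and 5. For Cyp3a25 the differences were -1.43, -0.15, -0.64, -1.18 and -2.47 (mean -1.17, SE 0.31, adjusted p = 0.225 in the paired fit). For Cyp2d9 they were -0.89, -2.23, -0.35, -0.54 and -2.54.
In Cyp2b13 the pairs in which the gene was near the floor differed least, by -0.10 and -0.42 in pairs 1 and 2, and pairs 3, 4 and 5 by -1.32, -2.20 and -1.84. For Cyp2c50 pairs 2 and 5 differed by -2.82 and -4.59 and the other 3 by -0.66 at most, around a mean of -1.69.

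**Figure D5:**
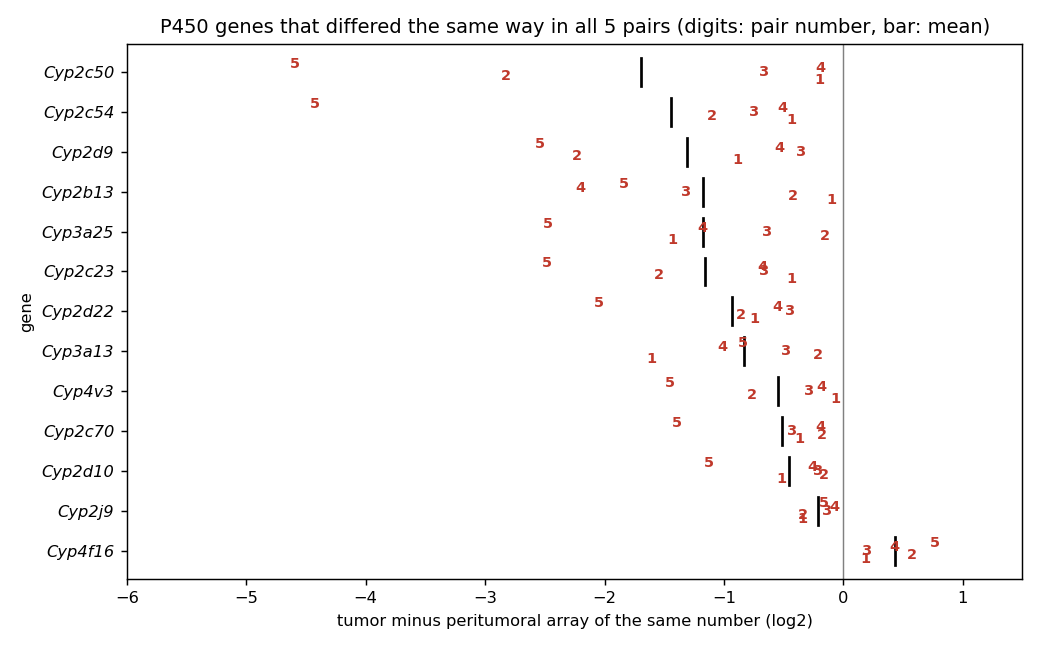
Difference of each tumor from the peritumoral array of the same number (log2) for the 13 P450 genes that differed in the same direction in all 5 pairs, with the pair number as digit and the mean as bar. For 12 genes all digits lie left of 0, and pair 5 lies at -4.59 for Cyp2c50.

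Further P450 genes stood out in single arrays, or in none. Cyp1a1, the classic target of AhR, lay between 3.50 and 4.26 in all 15 arrays. Cyp1b1, an AhR target found mostly outside hepatocytes, lay at 6.24 in tumor 3 and between 3.59 and 4.59 in the other 14 arrays. In tumor 3 the cholangiocyte markers Krt7 and Epcam lay at 5.72 and 7.54 and the collagen gene Col1a1 at 8.21, where the other 14 arrays gave no more than 4.29, 5.50 and 5.48. The cholangiocyte marker Krt19 went otherwise, at 5.67 in tumor 3 and at 6.52 and 6.26 in tumors 1 and 4. The mean over 8 stellate cell and fibroblast markers was 8.07 in tumor 3 and between 5.62 and 6.58 in the other arrays. Among these markers Dcn, Des and Lrat, at 11.33, 4.65 and 3.96 in tumor 3, were not above the wild type range. The part of all these markers in the Cyp1b1 level was not tested.
Cyp4a14, a fatty acid hydroxylase under the control of PPARα, spread within every group, from 6.02 to 10.03 in wild type liver, from 6.44 to 9.53 in peritumoral liver and from 4.98 to 11.09 in tumors. Tumor 5 was its lowest array and tumor 1 its highest.
Cyp2c55, which CAR and PXR activators induce, was highest in peritumoral 4 at 9.92 and tumor 1 at 9.93, beside 6.59 to 8.28 in wild type liver. In the Cyp4f subfamily, Cyp4f13 lay between 7.73 and 8.16 in tumors and between 7.91 and 8.62 in wild type liver. Cyp4f16 lay between 5.44 and 6.41 in tumors and between 4.95 and 6.01 in wild type liver.

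The measured partners and regulators of P450 enzymes passed the test in no comparison. Of 12 measured genes of electron transfer and heme synthesis, 0 passed in any comparison, and their median log2 ratio was -0.15 in tumors and -0.18 in peritumoral liver, both to wild type. The reductase Por was not among the 12, so its level is not known here. Cpox, a step of heme synthesis, lay between 6.61 and 7.77 in wild type liver and at 7.65, 5.87, 6.52, 7.10 and 5.03 in tumors, the lowest being tumors 5 and 2. Of 24 regulators 0 passed, and 3 were lower in tumors than in wild type at an unadjusted p under 0.05 while 0 were higher. Over all genes 9.96% were lower and 7.46% higher at that threshold.
Nr1h4, the bile acid receptor FXR, lay between 8.90 and 9.30 in wild type liver and at 8.01, 7.70, 8.67, 8.0004 and 7.38 in tumors, so that the groups did not overlap (adjusted p = 0.0525). Cebpa, a factor of the mature hepatocyte, lay between 9.90 and 10.73 in wild type liver and at 9.24, 9.19, 10.22, 9.33 and 8.40 in tumors. Hnf4a lay between 9.16 and 10.08 in wild type liver, between 9.54 and 10.65 in peritumoral liver and between 8.97 and 9.94 in tumors. Its log2 ratio to wild type was -0.25 in tumors (adjusted p = 0.545) and 0.32 in peritumoral liver (adjusted p = 0.479), both from limma.
Ppara and Rxra, named after their values were seen, lay at 6.30 and 6.76 in tumor 5, where the other 14 arrays gave no less than 9.28 and 7.96. For Rxra the other tumors were low as well, between 7.96 and 8.26, beside 8.49 to 8.65 in wild type and 8.36 to 8.75 in peritumoral liver. All tumors thus lay below every wild type array, as for 2.84% of all genes, with a log2 ratio of -0.75 (adjusted p = 0.185 from limma). Of the receptors of Cyp2b and Cyp3a inducers, Nr1i3, which encodes CAR, lay between 7.29 and 8.98 over all arrays and Nr1i2, which encodes PXR, between 6.61 and 7.47.
Of 12 other xenobiotic enzymes 1 passed. Nqo1, a quinone reductase and target of NRF2, rose from 5.03 to 5.63 in wild type liver to 6.41 to 7.06 in peritumoral liver and 7.25 to 8.56 in tumors, with log2 ratios of 1.42 (adjusted p = 0.00549) and 2.61 (adjusted p = 0.000995) from limma. None of the 48 P450 genes showed such a separation of the 3 groups.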

How the data were processed

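RNA of liver was measured on Affymetrix mouse arrays in 15 samples. Per the labels, scanning used GCOS 1.4. The log2 values that the authors deposited come from RMA, a method of background correction, quantile normalization and summary per probe set. The genome build and the RMA version are not given in the sources used here. A second deposited table holds the authors' log2 ratios of KO arrays to wild type and was not used. The 22690 probe sets include 64 controls. The 20380 probe sets with 1 gene symbol were averaged for 12393 genes. The 48 P450 genes rest on 57 probe sets, 41 genes on 1 each. Of these probe sets, 9 may match several transcripts.

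Groups were compared with limma 3.58.1 in R 4.3.3 (lmFit, eBayes, two-sided) on the 2 groups concerned, with Benjamini-Hochberg adjustment over 12393 genes and a threshold of 0.05. The number of arrays limits the precision, and if samples of a group are not separate animals, p-values measure technical spread. The fit was tested on simulated data. Tumor and peritumoral arrays of 1 number, each minus its group mean, correlated across genes by 0.117 to 0.673, all above 0.1, and 4 of 5 tumors correlated best with their own number. They were therefore also treated as pairs, a choice that rests on these correlations, since the labels state no shared animal. Correlations with wild type arrays of the same number lay between -0.223 and 0.207.

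P450 genes named with ratios between groups are the 10 with the largest log2 ratio and the 5 with the smallest p in each comparison, and Cyp2c39. The highest gene of each subfamily and textbook genes are given by level. Cyp2c38, Cyp2c39, Cyp2d10, Cyp2j9, Cyp3a16, Cyp3a44, Cyp2b19, Cyp4f13, Cyp4f16 and Cyp4v3 were named after their values were seen, as were Hnf4a, Nr1i2, Nr1i3, Xist, Eif2s3y and the markers named singly. Members and lists were chosen with earlier results of these data known. Alternatives changed the summary of probe sets, the scaling, the filter, the variance model, the block and the arrays included. Promoter windows were aligned globally (match 1, mismatch -1, gap opening -3, extension -0.5).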

Additional observations from a re-analysis of the deposited data

Results flagged for a closer look

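Of 84 groups of 5 arrays, 1 for each named P450 gene and group, 17 held 1 array far from the other 4 by Dixon's 95% critical value, where chance flags about 1 in 20. Wild type 4 was the array in 7 of them. It was low for Cyp1a2 (10.50), Cyp2c37 (10.15), Cyp2c68 (11.87), Cyp2d13 (4.89), Cyp2j5 (9.75), Cyp4a12a (6.01) and Cyp4f14 (9.34). Peritumoral 2 was low for Cyp1a2 (9.70), Cyp2d13 (3.67), Cyp2d26 (12.33), Cyp2j5 (6.17), Cyp4a12a (7.76) and Cyp4f14 (7.14). The nearest other peritumoral arrays lay at 10.38 for Cyp2j5 and 12.16 for Cyp4a12a. Tumor 3 was high for Cyp1b1 (6.24) and Cyp2b10 (6.43), tumor 2 was low for Cyp4f14 (5.66), and tumor 5 was low for Cyp3a11 (13.33).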

How the results depend on the processing

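The count of P450 genes that passed between tumors and wild type liver was 0 and became 1 with all 3 groups in 1 fit (2.32% of all genes passed), 9 with array weights (14.8%), 4 without wild type 4, peritumoral 2 and tumor 2 (4.59%), 10 when tumor 5 was left out too (11.5%), and 3 without tumors 2 and 5 (2.79%), an alternative chosen after seeing the data. Between peritumoral and wild type liver it was 9 with array weights (8.73% of all genes) and 11 without the 3 arrays (7.73%), and between tumors and peritumoral liver 4 with array weights (5.43%) and 0 without the 3 or 4 arrays. With single arrays left out these counts ranged from 0 to 2, from 0 to 3 and stayed at 0. Without wild type 4 they were 2 and 3 (2.57% and 2.15% of all genes). Genes whose groups did not overlap numbered 3, 4 and 1 in the order tumors to wild type, peritumoral to wild type, tumors to peritumoral. Without the 3 arrays they were 11, 15 and 8 (19.1%, 18.8% and 8.83% of all genes), and without 4 arrays 14 and 9 for the 2 comparisons that tumors enter (29.9% and 14.2%). With single arrays left out they ranged from 3 to 11, from 4 to 10 and from 1 to 6. The highest values came without wild type 4 in the first 2 (13.5% and 12.8% of all genes) and without peritumoral 2 in the third (6.02%).

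The replicate number as a block gave 0 passing genes in all 3 comparisons and raised the count at an unadjusted p under 0.05 between tumors and peritumoral liver from 5 to 16. The 35 named log2 ratios were refitted 729 times over the alternatives. None changed sign, 44 came under the threshold and 685 stayed above it. Genes near the floor, such as Cyp1a1 and Cyp2b19, have little room to fall, and bright genes such as Cyp3a11 little room to rise. Whether probe sets of near-identical genes share signal was not tested.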
